A study of Mus musculus with 8 samples.

Results

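SR proteins, heterogeneous nuclear ribonucleoproteins (hnRNPs) and the CLK kinases were examined in mouse mesenchymal stem cells (MSCs, stromal cells of the bone with osteogenic, adipogenic and chondrogenic potential) grown at low or high oxygen. The group was chosen with earlier results of these data known. Its members were taken by gene symbol, as the genes named Srsf, Hnrnp or Clk1 to Clk4, with pseudogenes left out. They made up 35 of the 53465 genes in the count table. These were 11 Srsf genes, 20 Hnrnp genes and 4 Clk genes. RNA-seq counts were compared between 4 hypoxia samples (2% O2) and 4 normoxia samples (21% O2). Per the labels the cells were bone-marrow MSCs from mice aged 3-5 months, both groups received 5% CO2, and purified cells were sorted on day 12. Per the study, the mice were male C57BL/6N, the bone was from the hind limbs, and the sorted cells were CD45-, Ter119-, Sca-1+ and CD140a+. The study also states that the sorted population was divided between the oxygen levels and kept there for 7 days. It describes 4 biologically independent replicates. By that account normoxia is the condition the cells were shifted to, while the labels name the sort only after culture at either oxygen level.

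As background, SR proteins carry RNA recognition motifs and a tail rich in arginine and serine, and they bind exonic enhancers and help to recruit the spliceosome. HnRNPs coat nascent transcripts, and many of them act against exon inclusion or bind regulatory introns and untranslated regions. CLK kinases phosphorylate the arginine and serine tails in the nucleus, which releases SR proteins from nuclear speckles. Many of these genes regulate their own RNA through exons that trigger nonsense-mediated decay, and Clk1 and Clk4 can keep introns in their transcripts. Counts per gene do not separate such forms, so the values here are sums over all forms of a gene.

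The upstream sequences of 4 genes are shown for orientation, as the 2 largest rises and the 2 falls among called members whose 150 bases before the RefSeq start hold no annotated exon. They come from the RefSeq promoter table (GRCm38.p6) and are written 5′ to 3′ on the strand of the gene. Capitals mark the letters ACGTG or CCAAT on either strand. ACGTG is a form of the core of the element that hypoxia-inducible factors bind, and other forms of this core were not searched or marked. The Hnrnph1 stretch is chr11:50376840-50376989 on the plus strand, that of Hnrnpa2b1 is chr6:51469895-51470044 on the minus strand, that of Hnrnpa0 is chr13:58128557-58128706 on the minus strand, and that of Hnrnpul1 is chr7:25754760-25754909 on the minus strand.
Hnrnph1: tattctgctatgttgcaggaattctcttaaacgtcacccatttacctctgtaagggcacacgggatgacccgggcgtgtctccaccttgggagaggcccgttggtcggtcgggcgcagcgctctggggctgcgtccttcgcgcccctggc
Hnrnpa2b1: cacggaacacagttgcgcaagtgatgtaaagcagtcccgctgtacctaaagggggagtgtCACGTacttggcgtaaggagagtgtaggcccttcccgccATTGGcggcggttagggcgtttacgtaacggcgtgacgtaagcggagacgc
Hnrnpa0: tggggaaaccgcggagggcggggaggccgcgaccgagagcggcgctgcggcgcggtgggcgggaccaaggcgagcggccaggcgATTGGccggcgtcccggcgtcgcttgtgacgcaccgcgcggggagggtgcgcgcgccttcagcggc
Hnrnpul1: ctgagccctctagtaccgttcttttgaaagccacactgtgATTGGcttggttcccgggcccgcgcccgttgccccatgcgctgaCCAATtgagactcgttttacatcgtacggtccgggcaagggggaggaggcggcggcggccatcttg
The Hnrnpa0 stretch had 79.3% GC and 28 CpG dinucleotides, against 61.3% and 12 for Hnrnph1, 58.0% and 15 for Hnrnpa2b1, and 61.3% and 13 for Hnrnpul1. ACGTG was found only in the Hnrnpa2b1 stretch among these 4. CCAAT was found 2 times in Hnrnpul1, 1 time each in Hnrnpa2b1 and Hnrnpa0, and not in Hnrnph1. Both genes that fell and 1 of the 2 that rose thus carried CCAAT in these 150 bases.

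Total counts per sample were 12898291 to 25132141, with hypoxia replicate 1 the deepest, and 3 counts corresponded to 0.125 to 0.241 CPM (reads of a gene relative to the library total, which was scaled by TMM factors). The sort markers Ly6a (which encodes Sca-1) and Pdgfra (CD140a) stood at 434 ± 46.5 and 174.6 ± 25.4 CPM in hypoxia and at 393.4 ± 49.6 and 205.6 ± 19.7 CPM in normoxia (SD, n = 4). The 9 listed MSC markers summed to 3600 to 4440 CPM in hypoxia and 3980 to 4330 CPM in normoxia, and Lepr was the lowest of them, at 2.81 to 14.3 CPM in hypoxia. Itgb1 (0.44) and Cd44 (0.72) were called higher and Eng (-0.27) lower on the log2 scale, and with same-numbered samples paired 4 were called higher and 4 lower. All 10 blood and macrophage markers were also detected. They summed to 636 to 1360 CPM in hypoxia and 706 to 1370 CPM in normoxia, and Lyz2 was called higher and C1qa lower in normoxia. With same-numbered samples paired, 7 of the 10 were called lower, namely Csf1r, Itgam, Cd68, C1qa, C1qb, C1qc and Tyrobp, each lower in 4 of 4 pairs, and Lyz2 was called higher. Without Lyz2 the other 9 summed to 375.5 to 920.9 CPM in hypoxia and 306.5 to 678.3 CPM in normoxia, lower in normoxia in 4 of 4 pairs. Of 6 erythroid markers, 5 were at 0 in every sample. The oxygen labels were checked with 8 genes known to rise in low oxygen. Of these, 7 were called lower in normoxia, among them Car9 by -2.34 on the log2 scale, and Vegfa was not called. In a bulk sample, fewer cells of a type and less RNA per cell cannot be told apart, and the part of the blood and macrophage markers in the results was not tested.

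It was first asked how many members changed with the oxygen level. Of the 35 members, 34 passed the filter on low counts. A gene was called when limma-trend gave an adjusted p-value below 0.05, which held for 34.6% of the 14369 genes tested. By this rule 15 members (44.1%) were higher in normoxia, against 18.0% of all tested genes, and 2 (5.88%) were lower, against 16.5% of all tested genes. The other 17 were not called. Values are CPM, and changes are log2 normoxia minus hypoxia. The changes were small, since they ran from -0.52 to 0.49, with a median of 0.18 against 0.005 over all tested genes. The median absolute change was 0.20 for members and 0.24 for all tested genes. For 13 members (38.2%) the 4 values of a group did not overlap those of the other, against 32.6% of all tested genes. When samples with the same number were compared as pairs (the replicate block), which called 46.0% of all genes, 4 members were called lower (11.8%, against 22.7% of all genes) and 19 higher (55.9%, against 23.3% of all genes). Without TMM factors, on library totals alone, 25.1% of all genes were called higher and 11% lower, so that the higher share of all calls shifted from 52.2% to 69.6%, and the members stood at 20 higher and 2 lower.

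**Figure D1:**
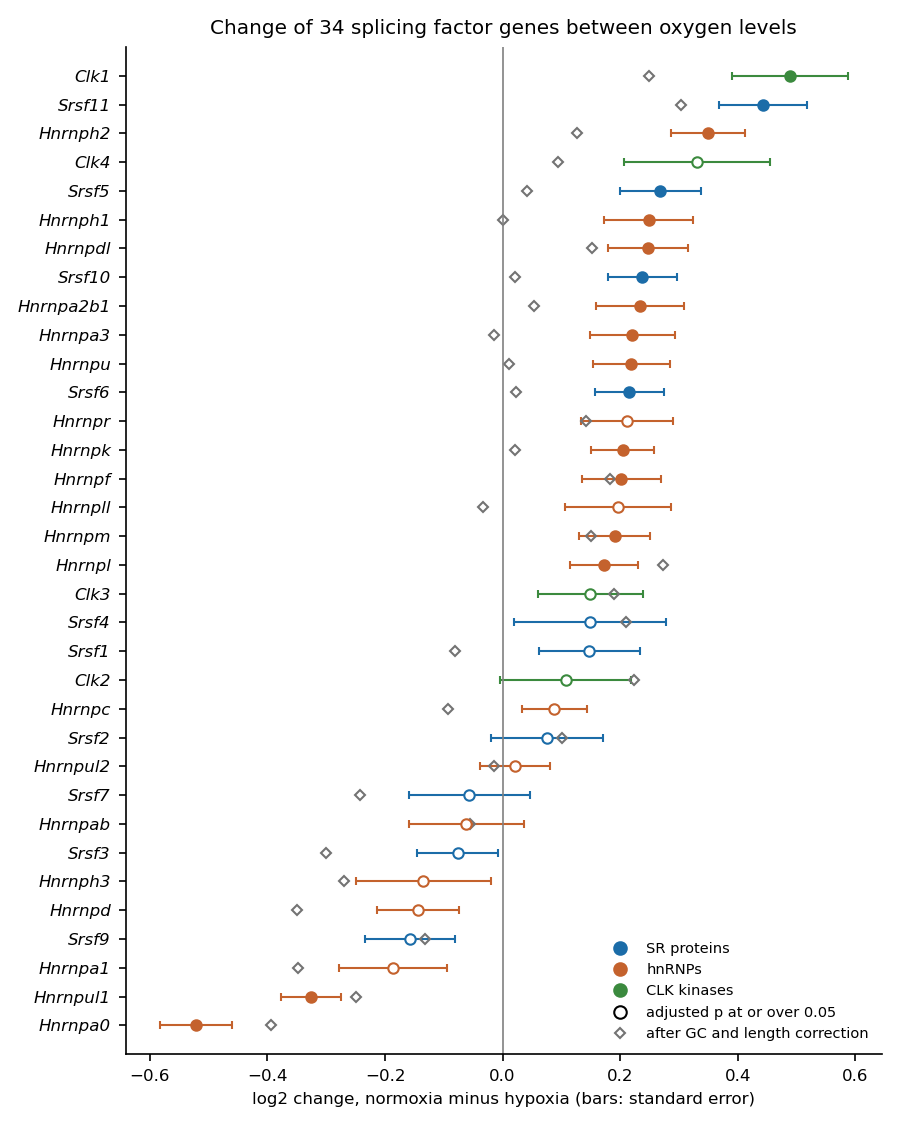
The log2 change (normoxia minus hypoxia) of the 34 tested members is plotted with its standard error, coloured by family, with filled points for an adjusted p-value under 0.05 (limma-trend, n = 4 per group) and grey diamonds for the change after correction for GC content and length. Clk1 is at the top with 0.49 and Hnrnpa0 at the bottom with -0.52, and for 25 of 34 members the diamond lies to the left of the point.

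Among the kinases, 1 of 4 was called higher and none lower. Clk1 (chr1:58410189-58424066) stood at 27.2, 29.3, 21.3 and 29.0 CPM in hypoxia replicates 1 to 4 and at 36.1, 37.7, 39.4 and 35.9 CPM in normoxia replicates 1 to 4. Every normoxia sample was above every hypoxia sample. The log2 change of Clk1 was 0.49 ± 0.098 (SE; limma-trend, adjusted p = 0.0026), or 40.3% on the moderated scale, and it was the largest rise among the members. Clk4 (chr11:51261730-51281766), the kinase nearest to Clk1 in sequence, stood at 15.8, 17.9, 11.8 and 14.3 CPM in hypoxia and at 16.3, 19.6, 19.3 and 19.4 CPM in normoxia. Its groups overlapped, as hypoxia replicate 2 was above normoxia replicate 1. The log2 change of Clk4 was 0.33 ± 0.12 (limma-trend, adjusted p = 0.057, or 0.010 under the replicate block). Leaving out hypoxia replicate 1, hypoxia replicate 2 or normoxia replicate 1 gave adjusted p-values of 0.048, 0.018 and 0.043.

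Clk2 and Clk3 were not called. Clk2 (chr3:89164795-89176921) stood at 12.3, 14.8, 12.6 and 14.4 CPM in hypoxia and 12.3, 16.1, 14.1 and 16.0 CPM in normoxia, a log2 change of 0.11 ± 0.11 (adjusted p = 0.50). Clk3 (chr9:57750624-57765860) stood at 22.2, 24.4, 22.1 and 19.4 CPM in hypoxia and 24.4, 25.2, 26.1 and 22.1 CPM in normoxia, a log2 change of 0.15 ± 0.089 (adjusted p = 0.22). Both sets of groups overlapped. Per kilobase of the longest transcript, the kinases were close to each other in hypoxia, with mean levels of 5.48 for Clk1, 5.34 for Clk3, 4.27 for Clk2 and 4.21 for Clk4. In normoxia the levels were 7.66, 5.91, 4.62 and 5.27 CPM per kilobase in the same order. Summed over the 4 kinases, the level was 77.2 ± 7.56 CPM in hypoxia and 95.0 ± 4.72 CPM in normoxia (SD, n = 4), a ratio of 1.23.

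**Figure D2:**
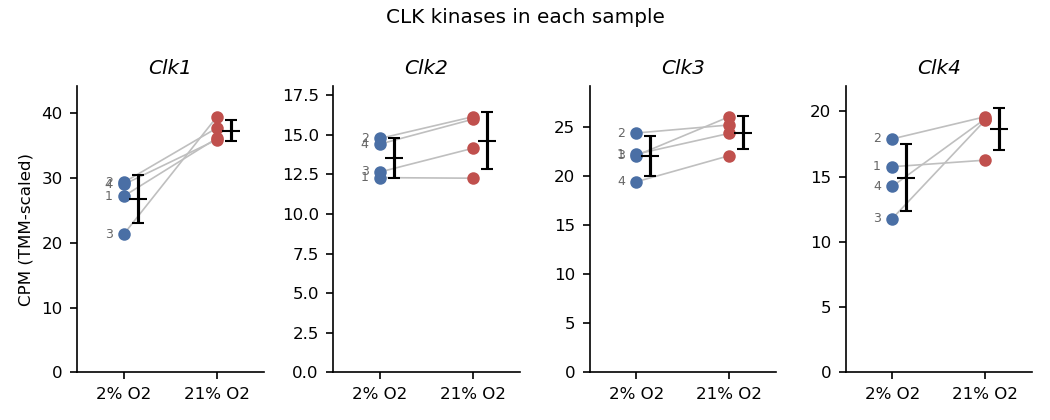
CPM of the 4 CLK kinase genes is shown in each sample at 2% and 21% O2, with lines joining samples of the same replicate number and black bars giving mean ± SD (n = 4). The groups separate for Clk1, from 21.3 to 29.3 CPM against 35.9 to 39.4 CPM, and overlap for Clk2, Clk3 and Clk4.

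Among the SR proteins, 4 of the 10 tested genes were called higher, none was called lower, and the median change was 0.15. Srsf11 (chr3:158010473-158036639), an SR protein found with spliceosome components, stood at 60.1, 60.9, 48.9 and 52.9 CPM in hypoxia and at 74.9, 73.7, 75.3 and 78.2 CPM in normoxia. The groups were far apart, with the 4 normoxia samples close to each other. The log2 change of Srsf11 was 0.44 ± 0.075 (limma-trend, adjusted p = 0.00094), or 36.0%. Srsf5 (chr12:80945504-80950507), a shuttling SR protein, stood at 130.7, 139.5, 112.0 and 126.0 CPM in hypoxia and at 145.8, 159.1, 149.0 and 156.8 CPM in normoxia. Its log2 change was 0.27 ± 0.069 (adjusted p = 0.010), and the groups did not overlap.

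Srsf10 and Srsf6 had smaller rises. Srsf10 (chr4:135855747-135869908), which acts as a splicing repressor once dephosphorylated, stood at 70.7, 63.7, 67.0 and 70.2 CPM in hypoxia and at 84.7, 77.2, 79.3 and 79.1 CPM in normoxia, a log2 change of 0.24 ± 0.059 (adjusted p = 0.0085). Srsf6 (chr2:162931528-162937121), an exonic enhancer binder, stood at 123.7, 107.3, 110.1 and 118.6 CPM in hypoxia and at 132.6, 134.6, 135.0 and 130.9 CPM in normoxia, a log2 change of 0.22 ± 0.058 (adjusted p = 0.013). For both genes all normoxia samples were above all hypoxia samples.

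The smallest changes in this family were those of Srsf7 and Srsf2. Srsf7 (chr17:80200080-80207307), a small shuttling SR protein that also takes part in mRNA export, stood at 53.9, 38.8, 52.7 and 52.9 CPM in hypoxia and at 51.0, 43.7, 49.7 and 44.8 CPM in normoxia (log2 change -0.06 ± 0.10, adjusted p = 0.71). Srsf2 (chr11:116849901-116853094), the nuclear speckle protein SC35, stood at 65.3, 45.2, 55.1 and 50.8 CPM in hypoxia and at 56.9, 55.0, 58.2 and 55.9 CPM in normoxia (log2 change 0.07 ± 0.095, adjusted p = 0.58). Their hypoxia values spread more widely than their normoxia values. Of the others, Srsf1 had a log2 change of 0.15 (adjusted p = 0.21, with the replicate block 0.039) and Srsf9 one of -0.16 (adjusted p = 0.13, with the block 0.038). Srsf3 (-0.08) and Srsf4 (0.15) were not called with or without the block. Srsf12 did not pass the filter, with 4, 2, 0 and 3 counts in hypoxia and 6, 7, 13 and 4 counts in normoxia. Summed over the family, SR proteins were at 762 ± 50.6 CPM in hypoxia and 836.2 ± 15.3 CPM in normoxia, a ratio of 1.10.

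Among the hnRNPs, 10 of 20 genes were called higher and 2 lower, with a median change of 0.19. Hnrnpa0 (chr13:58125879-58128556), a gene with a single exon whose protein binds AU-rich elements of mRNAs, stood at 301.7, 287.5, 337.2 and 295.0 CPM in hypoxia and at 201.8, 218.5, 216.9 and 212.2 CPM in normoxia. The groups lay well apart, and the log2 change of Hnrnpa0 was -0.52 ± 0.061 (limma-trend, adjusted p = 0.00013), or -30.3%. Hnrnpul1 (chr7:25721165-25754757), a relative of Hnrnpu that takes part in the DNA damage response, stood at 173.8, 178.4, 179.0 and 173.3 CPM in hypoxia and at 134.3, 140.7, 139.9 and 147.3 CPM in normoxia. Its log2 change was -0.33 ± 0.051 (adjusted p = 0.00062), with no overlap between groups.

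The largest rises among the hnRNPs were those of Hnrnph2, Hnrnph1, Hnrnpdl and Hnrnpa2b1, while Hnrnph3 (-0.14) was not called. Hnrnph2 (chrX:134601179-134607060), which binds G-rich RNA, stood at 82.0, 71.9, 70.5 and 71.2 CPM in hypoxia and at 95.7, 92.4, 90.9 and 97.1 CPM in normoxia (log2 change 0.35 ± 0.063, adjusted p = 0.0014). Its paralog Hnrnph1 (chr11:50376990-50386528) stood at 140.7, 111.1, 116.6 and 115.1 CPM in hypoxia and at 149.4, 136.5, 138.1 and 148.6 CPM in normoxia (log2 change 0.25 ± 0.075, adjusted p = 0.023). The groups were separate for Hnrnph2 and overlapped for Hnrnph1, where hypoxia replicate 1 was above normoxia replicates 2 and 3. Hnrnpdl (chr5:100033577-100039664), a relative of Hnrnpd, stood at 51.5, 44.3, 43.3 and 46.8 CPM in hypoxia and at 53.2, 54.7, 57.0 and 55.5 CPM in normoxia (log2 change 0.25 ± 0.068, adjusted p = 0.014). Its groups did not overlap. Hnrnpa2b1 (chr6:51460932-51469894), which encodes the A2 and B1 proteins, stood at 380.7, 311.8, 305.6 and 330.6 CPM in hypoxia and at 419.9, 364.4, 385.8 and 388.8 CPM in normoxia. Its log2 change was 0.23 ± 0.075 (adjusted p = 0.029), and hypoxia replicate 1 was above normoxia replicate 2.

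The other 6 hnRNPs called higher were Hnrnpa3, Hnrnpu, Hnrnpk, Hnrnpf, Hnrnpm and Hnrnpl, with log2 changes of 0.22, 0.22, 0.20, 0.20, 0.19 and 0.17. Hnrnpk, which binds C-rich RNA, had the highest level per kilobase of the longest transcript of all members, at 124 CPM per kilobase in hypoxia and 142 in normoxia. Next in hypoxia were Hnrnpa0 at 114, Hnrnpa1 at 103 and Hnrnpa2b1 at 91.1, and in normoxia Hnrnpa2b1 at 107, Hnrnpa1 at 90.6 and Hnrnpab at 80.8, with Hnrnpa0 at 79.3. Per kilobase, Hnrnpa0 thus stood above Hnrnpa2b1 in hypoxia and below it in normoxia.

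The hnRNPs with the smallest changes were Hnrnpul2 and Hnrnpab. Hnrnpul2 (chr19:8820010-8834143) stood at 231.8, 208.0, 203.1 and 197.6 CPM in hypoxia and at 219.5, 210.3, 215.1 and 207.0 CPM in normoxia (log2 change 0.02 ± 0.060, adjusted p = 0.81). Hnrnpab (chr11:51600100-51606847) stood at 229.3, 166.6, 217.7 and 189.2 CPM in hypoxia and at 208.1, 174.5, 204.7 and 178.4 CPM in normoxia (log2 change -0.06 ± 0.098, adjusted p = 0.67). In both groups Hnrnpab was higher in replicates 1 and 3 than in 2 and 4. Hnrnpr (0.21, adjusted p = 0.053) and Hnrnpll (0.20, adjusted p = 0.12), which controls splicing of the CD45 gene in lymphocytes, were not called, but under the replicate block both were, at 0.0079 and 0.022. Hnrnpc (0.09), Hnrnpd (-0.14) and Hnrnph3 (-0.14) were not called with or without the block. Summed over the family, hnRNPs were at 3503 ± 220 CPM in hypoxia and 3665 ± 123 CPM in normoxia, a ratio of 1.05.

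Hnrnpa1, a well-studied repressor of exon inclusion, is described here because the blocked fit changed its call. It stood at 377.7, 275.3, 315.3 and 321.8 CPM in hypoxia and at 314.4, 255.1, 278.7 and 281.1 CPM in normoxia. The groups overlapped, whereas the normoxia sample was the lower in 4 of 4 pairs. The log2 change of Hnrnpa1 was -0.19 ± 0.091 (limma-trend, adjusted p = 0.13, or 0.0027 under the replicate block). Hnrnpa1 is known to have processed pseudogenes, and whether reads were shared with them was not tested, so its level is uncertain.

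The calls differed in how far they rested on single samples. When each of the 8 samples was left out in turn, 7 of the 15 members called higher kept their call every time, namely Clk1, Srsf11, Srsf5, Srsf10, Srsf6, Hnrnph2 and Hnrnpk, as did Hnrnpa0 and Hnrnpul1 among the members called lower. The call of Hnrnpdl was lost without normoxia replicate 3 (adjusted p = 0.052). That of Hnrnpu was lost without hypoxia replicate 3 or 4 or normoxia replicate 1 or 4 (adjusted p = 0.068, 0.064, 0.063 and 0.073). That of Hnrnph1 was lost without hypoxia replicate 2, 3 or 4 or normoxia replicate 1 or 4 (0.058 to 0.075). Hnrnpa2b1, Hnrnpa3 and Hnrnpm kept it only in the fits that left out hypoxia replicate 1 or normoxia replicate 2, with adjusted p-values up to 0.099, 0.11 and 0.098. Hnrnpf and Hnrnpl kept it only in the fit that left out hypoxia replicate 1, with adjusted p-values up to 0.12 and 0.13.

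Within a sample, the ratio of a pair of related members does not depend on the scaling of the library. The ratios were not corrected for the GC content of the transcripts, which differed between the genes of some pairs. It was 44.1% for Hnrnpa1 and 43.6% for Hnrnpa2b1, but 39.2% for Clk1 and 55.4% for Clk2. Pairs of the same family share genes, so they are not independent of each other. In 12 of 30 pairs (40%) the log2 ratio did not overlap between the groups, against 27.8% of all pairs of tested genes. Each such pair had p = 0.0286 in a two-sided exact permutation test, the smallest value that 4 against 4 samples allow, and 0.0714 after Benjamini-Hochberg adjustment over the 30 pairs, so no pair passed 0.05. Among the hnRNP A genes, the log2 ratio of Hnrnpa1 to Hnrnpa2b1 was -0.01, -0.18, 0.04 and -0.04 in hypoxia replicates 1 to 4 and -0.42, -0.51, -0.47 and -0.47 in normoxia. Their CPM, not divided by transcript length, were nearly equal in hypoxia, and Hnrnpa1 was the lower in every normoxia sample. The groups differed by -0.42. The ratio of Hnrnpa0 to Hnrnpa2b1 differed by -0.76, and the ratio of Hnrnpa2b1 to Hnrnpa3 was 0.29 ± 0.050 in hypoxia and 0.30 ± 0.038 in normoxia (SD, n = 4; exact permutation test, p = 0.629).

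**Figure D3:**
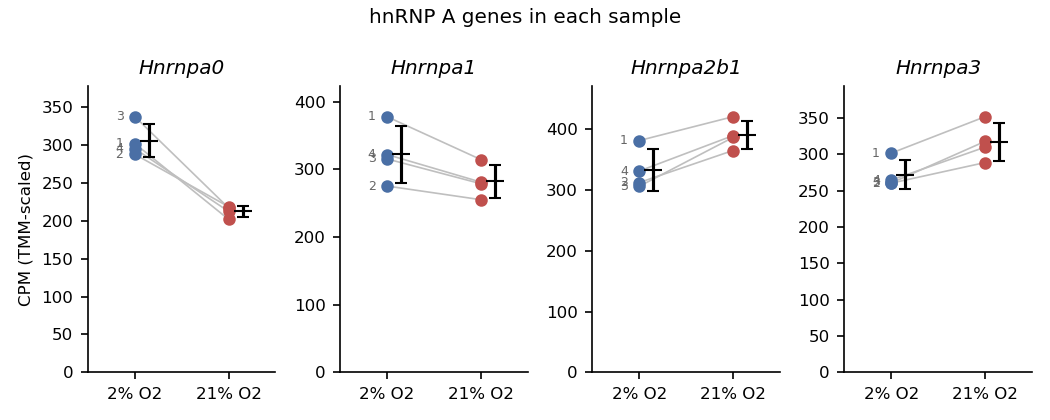
CPM of the 4 hnRNP A genes is shown in each sample at 2% and 21% O2, with lines joining samples of the same replicate number and black bars giving mean ± SD (n = 4). Hnrnpa0 and Hnrnpa1 slope down in every pair, from 305.4 to 212.3 and from 322.5 to 282.3 CPM on average, and Hnrnpa2b1 and Hnrnpa3 slope up in every pair.

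Ratios within other families were read in the same way. The ratio of Hnrnpu, a scaffold attachment factor, to its relative Hnrnpul1 differed by 0.55 between the groups, that of Hnrnpul1 to Hnrnpul2 by -0.35, and that of Hnrnpd to Hnrnpdl by -0.39. The ratio of Clk1 to Clk2 was 1.13, 0.98, 0.74 and 1.00 in hypoxia and 1.54, 1.21, 1.47 and 1.16 in normoxia, a difference of 0.38 with no overlap. The ratio of Clk1 to Clk4 differed by 0.16 (exact permutation test, p = 0.114), with overlapping groups. After the correction for GC content and length described below, the log2 changes were 0.25 for Clk1 and 0.22 for Clk2. They were 0.01 for Hnrnpu, -0.25 for Hnrnpul1, -0.01 for Hnrnpul2, -0.35 for Hnrnpd and 0.15 for Hnrnpdl.

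The changes of the members moved with the GC content of their transcripts. The median GC content of the longest transcript was 43.2% for tested members and 49.7% for all tested genes. Spearman's rho between log2 change and GC content was -0.54 over the 34 members (Pearson's r was -0.46) and -0.39 over 14353 genes, and that with transcript length was 0.31 and 0.17. Genes of a sample share its library and are not independent, so these values are descriptions. Genes were also split into GC quartiles, from 1 (30.8% GC at its lowest) to 4 (75.5% at its highest). In GC quartile 1, 10 of 20 members were called higher, against 33.6% of all genes there, and none was called lower, against 5.13%. In GC quartile 2, 4 of 6 members were called higher, against 21.3%, and none lower, against 10.7%. In GC quartile 3, 1 of 6 was called higher, against 11.6%, and 1 lower, against 19.0%. GC quartile 4 held Clk2 and Hnrnpa0, of which none was called higher, against 5.57%, and 1 was called lower, against 31.4%. In quartiles 1 to 4 the median change was 0.21, 0.20, 0.11 and -0.21 for members and 0.19, 0.07, -0.05 and -0.18 for all genes.

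**Figure D4:**
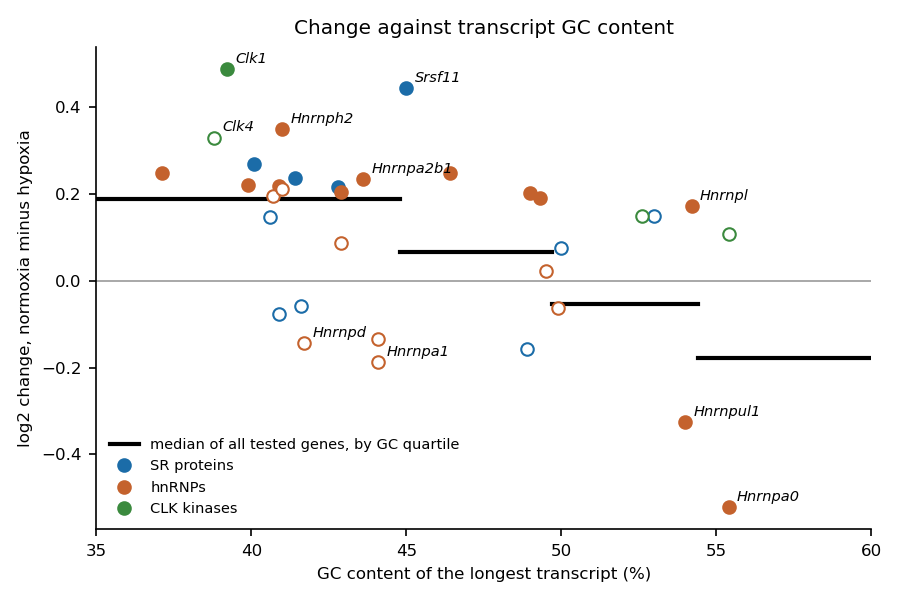
The log2 change (normoxia minus hypoxia) of each tested member is plotted against the GC content of its longest transcript in percent, coloured by family and filled where the adjusted p-value was under 0.05, with black bars for the median of all tested genes in each GC quartile. The bars step down from 0.19 to -0.18, and Hnrnpa1 and Hnrnpd, at 44.1% and 41.7% GC, lie below the bar of their quartile.

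When a smooth trend with GC content and length was removed from each sample, which called 29.5% of all genes and which also removes any true change that follows either property, 3 members were called higher (8.82%, against 15.1% of all genes) and 5 lower (14.7%, against 14.4% of all genes). The median change of the members was then 0.02. Clk1 (0.25, adjusted p = 0.048), Srsf11 (0.30, adjusted p = 0.0056) and Hnrnpl (0.27, adjusted p = 0.0054) were called higher by limma-trend. Hnrnpl, which binds CA repeats, has 54.2% GC. Hnrnpa0 (-0.39, adjusted p = 0.00039), Hnrnpul1 (-0.25, adjusted p = 0.0024), Hnrnpa1 (-0.35, adjusted p = 0.012), Hnrnpd (-0.35, adjusted p = 0.0046) and Srsf3 (-0.30, adjusted p = 0.0057) were called lower. Srsf5, Srsf6, Srsf10 and Hnrnph1 then had changes of 0.04, 0.02, 0.02 and 0.001, none of them called. Adding the replicate block to this correction, 9 members were called higher (26.5%, against 21.7% of all genes) and 7 lower (20.6%, against 21.5% of all genes), where 43.2% of all genes were called in either direction. Clk2, Clk3, Hnrnpm, Hnrnpf, Hnrnpdl and Hnrnph2 joined the higher and Srsf7 and Hnrnph3 the lower members. Whether the trend with GC content comes from the cells or from the libraries was not tested.

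It is not stated whether counting used strand or how reads in overlapping genes were treated, so counts of overlapped members could be too high, with reads of a neighbour, or too low, with shared reads left out. Exons of 12 members overlap exons on the opposite strand, most widely Srsf4, of whose exonic bases 43.0% are shared with Gm12992, and Hnrnpab, of whose exonic bases 29.1% are shared with Phykpl. Of the genes called, Hnrnpm shares 14.7% of its exonic bases with March2 on the same strand. On the opposite strand Hnrnpf shares 13.5% with 4933440N22Rik and 13% with Gm43863, Hnrnpu 6.93% with Cox20 and Hnrnpk 5.1% with Rmi1. Clk1, Srsf11, Hnrnpa0 and Hnrnpul1 have no such overlap in the annotation.

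To place the members among other splicing genes, 118 genes of the spliceosome and its regulators were read from the same comparison. These lists too were chosen with earlier results of these data known. Of the 114 tested, 41 (36.0%, against 18.0% of all tested genes) were called higher and 19 (16.7%, against 16.5%) lower. Their median change was 0.10. On library totals alone these counts were 49 (against 25.1% of all genes) and 11 (against 11% of all genes). SR-related proteins and SR kinases were called higher in 15 of 23 cases and lower in 2, and among them Srpk1 and Srpk2, the cytoplasmic kinases of SR proteins, had log2 changes of 0.43 (adjusted p = 0.0043) and 0.40 (adjusted p = 0.0045). Factors of nonsense-mediated decay were called higher in 5 of 10 cases and lower in none. Other splicing regulators were called higher in 11 of 24 cases and lower in 5. For core particles the counts were 4 higher and 2 lower of 16 for U4/U6.U5, 3 and 3 of 18 for U1 and U2, and 1 and 3 of 13 for Sm and Lsm proteins. HnRNPs under other names had 2 higher and 4 lower of 10. After the correction for GC content and length, which called 15.1% of all genes higher and 14.4% lower, SR-related genes stood at 9 higher and 1 lower, decay factors at 5 and 0, and other regulators at 5 and 7. U1 and U2 then stood at 6 higher and 3 lower, U4/U6.U5 at 5 and 1, Sm and Lsm proteins at 0 and 3, and hnRNPs under other names at 1 and 3.

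**Figure D5:**
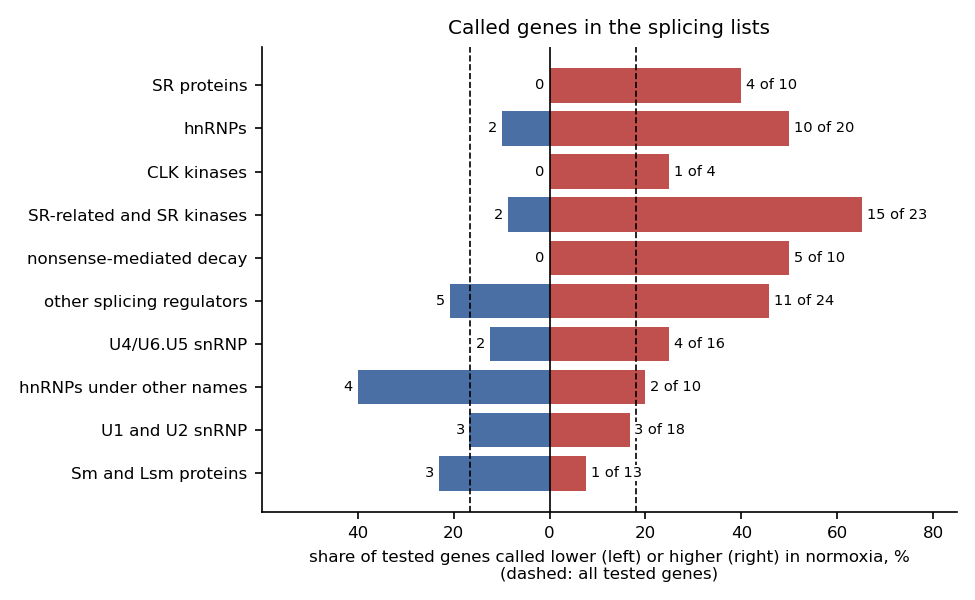
For each list, the bars give the percent of its tested genes called higher (right) or lower (left) in normoxia, with the counts beside them and dashed lines at 18.0% and 16.5%, the shares of all tested genes. The bar to the right is longest for SR-related proteins and SR kinases (15 of 23), and that to the left for hnRNPs under other names (4 of 10).

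The 5 largest rises in these lists were above that of Clk1, the largest among the members. Upf2, a core factor of nonsense-mediated decay, stood at 23.2, 24.1, 18.8 and 20.6 CPM in hypoxia and at 33.5, 36.7, 33.4 and 38.8 CPM in normoxia (log2 change 0.71, limma-trend adjusted p = 0.00022). Sf3b1, the U2 particle protein that holds the branch point, stood at 138.1, 122.0, 117.9 and 118.2 CPM in hypoxia and at 183.2, 181.4, 187.4 and 184.7 CPM in normoxia (0.57, adjusted p = 9e-05). Rsrc2, an SR-related protein, Pspc1, a paraspeckle protein, and Prpf4b, a kinase of spliceosome proteins, rose by 0.67, 0.62 and 0.57. Pcbp2, a C-rich RNA binder also called hnRNP E2, stood at 161.3, 145.9, 157.9 and 165.1 CPM in hypoxia and at 110.6, 103.1, 104.9 and 110.8 CPM in normoxia (-0.55, adjusted p = 8.3e-05). Sf3a2, another U2 particle protein, had a log2 change of -0.50, and Celf2, which binds U- and G-rich RNA, one of -0.44. The cold-inducible RNA binder Rbm3 and the Lsm ring protein Lsm7 had changes of -0.43 each. For all 10 genes the groups did not overlap and the calls held whichever sample was left out. Both follow in part from picking the largest changes among called genes. Of the 114 tested genes of these lists, 51.8% had groups that did not overlap, against 32.6% of all tested genes. Only Lsm7 lost its call after the correction for GC content and length (adjusted p = 0.15). Of the U2 particle proteins, Sf3b1 thus rose and Sf3a2 fell. In the whole U1 and U2 list 16.7% were called in each direction, near the 18.0% higher and 16.5% lower of all tested genes.

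Promoter sequences of 300 bases (250 before to 50 after the RefSeq start) were found for 32 of the 35 members. The letters ACGTG, on either strand, were in 13 of them (40.6%), against 19.7% of 27025 promoters of all genes and 25.5% of 10489 promoters of tested genes. CCAAT was in 17 (53.1%), against 37.9% and 38.7%. The promoters of members were also richer in GC, with a median of 66.8% against 52.7% and 61.0%, and in CpG dinucleotides, with a median of 30.5 against 7 and 21. ACGTG itself holds a CpG, and the part of CpG content in its share was not tested. Of the 14 members called higher that had an entry, 6 held ACGTG and 7 held CCAAT. A match describes the letters of the window and not a bound site, and other forms of the core that hypoxia-inducible factors bind were not searched.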

How the data were processed

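RNA was measured in 4 hypoxia (2% O2) and 4 normoxia (21% O2) samples. The authors prepared single-end libraries, aligned reads to mm10 with zUMIs and STAR, and counted them per Ensembl gene with featureCounts. The deposited values are these raw counts, not normalized. Strand, intron and multimapping settings are not given in the sources used here.

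Symbols, positions, transcript GC content and length came from GENCODE M21 (GRCm38), and 53360 identifiers matched. Following the study, filterByExpr (minimum count 5) kept 14369 genes, which hold 99.9% of counts. Values were log2 CPM (prior count 3, TMM factors in edgeR 4.0.16), compared by limma-trend in limma 3.58.1 (R 4.3.3), two-sided, with Benjamini-Hochberg adjustment over all 14369 genes and a threshold of 0.05. The moderated scale understates changes of low genes. Single ratios were compared by exact permutation tests in SciPy 1.17.1. Alternatives were DESeq2 1.42.0, limma-voom, edgeR's quasi-likelihood method, other normalizations, filters, prior counts and thresholds, leaving out each sample in turn, and a GC and length correction (natural splines with 5 degrees of freedom each). Methods were tested on simulated data.

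The study describes dividing the sorted population between oxygen levels but does not say which samples match. Deviations of same-numbered samples from their group means correlated across genes (0.17 to 0.47, above every crossed pair), and on this check the numbers were taken to pair the samples. Members and lists were chosen with earlier results of these data known. Genes with values in every sample are Clk1 to Clk4, the 6 largest called and 2 smallest changes of the Srsf and Hnrnp families as far as there were so many, and, of the wider lists, 5 rises and 5 falls among genes with a mean log2 CPM of at least 3. Hnrnpa1 and any other gene named were chosen after values were seen. Replicates are described as biological, and none were copies (chi-square per degree of freedom at least 3.7). The floor of 3 counts covers counting error only. Protein features were not analysed here.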

Additional observations from a re-analysis of the deposited data

Results flagged for a closer look

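Among 98 sets of 4 values searched, 7 had a sample far from the other 3 of its group by Dixon's criterion, where chance gives about 4.9 (1 in 20). Hypoxia replicate 1 had 25132141 counts, against 12929564 to 13219647 in the other hypoxia samples. In log2 CPM the same sample was high for Hnrnpa3 (8.238, against 8.025 to 8.049) and for Hnrnph2 (6.361, against 6.144 to 6.172). Hypoxia replicate 2 was low for Srsf7 (5.287, against 5.725 to 5.757) and for Sf3a2 (5.356, against 5.593 to 5.635). Normoxia replicate 1 was low for Clk4 (4.042, against 4.289 to 4.307), and normoxia replicate 4 was low for Lsm7 (3.112, against 3.28 to 3.312). Without hypoxia replicate 1, Hnrnpa3 and Hnrnph2 stayed higher in normoxia with adjusted p-values under 0.05 by limma-trend. As this sample was the highest in hypoxia for both genes, leaving it out widens the rise by construction. Over the 8 fits that each left out 1 sample, Hnrnpa3 kept its call in 2 and Hnrnph2 in 8.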

How the results depend on the processing

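The calls of Clk1, Srsf11, Hnrnpa0 and Hnrnpul1 held under each alternative run. Of 17 members called (15 higher, 2 lower), the edgeR test gave 15 and 2 and DESeq2 13 and 2. The GC and length correction gave 8 called (3 higher, 5 lower), the correction with the replicate block 9 higher and 7 lower, and the block alone 4 lower. A threshold of 0.01 left 6 called, 4 of them higher. Leaving out 1 sample gave 10 to 21 called, 8 to 19 higher and 2 to 4 lower, with 10 called without hypoxia replicate 3, 11 without hypoxia replicate 4, normoxia replicate 1 or normoxia replicate 3, and 4 lower without hypoxia replicate 2. The replicate block added calls for Clk4, Hnrnpa1, Hnrnpll, Hnrnpr, Srsf1 and Srsf9 and changed no other call of a member. The count over all tested genes moved as well. It was 4970 (34.6%) in the main fit, 4862 with the edgeR test, 4710 with DESeq2, 4238 with the GC and length correction and 2925 at 0.01. With 1 sample left out it ran from 3838 without hypoxia replicate 3 to 5423 without hypoxia replicate 1. The same fits gave the fewest and the most members called. Of the wider splicing genes, 60 were called (41 higher, 19 lower), 36 at 0.01 (25 higher, 11 lower), and 44 to 62 with 1 sample left out (29 to 46 higher, 14 to 20 lower). The correction with the block gave 30 lower and library totals alone 11. A stricter threshold lowers a count by construction, and the cause of the other shifts was not tested.

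Signs turned for small changes. With the GC and length correction, without and with the block, log2 changes were -0.014 for Hnrnpa3, -0.0923 for Hnrnpc, -0.0325 for Hnrnpll, -0.0141 for Hnrnpul2 and -0.0801 for Srsf1. On library totals alone they were 0.0265 for Hnrnpab, 0.0121 for Srsf3 and 0.0311 for Srsf7. Hnrnpul2 was -0.0071 with upper quartile factors, -0.0074 without hypoxia replicate 4 and -0.0056 without normoxia replicate 1, Hnrnpab was 0.0064 without hypoxia replicate 1, and Srsf2 was -0.0065 without hypoxia replicate 2. Leaving out 1 sample, the ranges were -0.0074 to 0.0704 for Hnrnpul2, -0.1471 to 0.0064 for Hnrnpab and -0.0065 to 0.1704 for Srsf2. Only Hnrnpa3 was called in the first place.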

Other observations

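The core gene Snrpf and the splicing regulator Raver1, which most cells use, were at or near 0 in the table. Snrpf had at most 0.231 CPM in a sample, and 65.9% of its exonic bases are shared with Ccdc38 on the opposite strand, while Raver1 had 0 counts in every sample and shares 3459 of its 3470 exonic bases with Gm38431 on the same strand. The part of such overlaps in the counts of either gene was not tested.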
